A study of Mus musculus with 4 samples.

Results

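The genes described here are 10 receptors and enzymes of the prostaglandin and leukotriene pathways, chosen by gene symbol among 22558 genes in RNA sequencing libraries of mouse lung group 2 innate lymphoid cells (ILC2s). ILC2s are lymphocytes without antigen receptors that make type 2 cytokines. Rows for 9 of the 10 genes were found, and all 9 passed the limits on low values. Ptgdr2, which encodes the prostaglandin D2 receptor CRTH2, was not analysed here. Cells were sorted from lungs of mice aged 6 weeks, either C57BL/6 wildtype (WT) or labelled ICAM-1 KO, after 3 intranasal doses of 0.5 µg rmIL-33. The paper's name for the knockout strain gives another strain besides C57BL/6. There were 2 libraries per genotype, each from a pool of mice. The Icam1 allele is a germline one, carried by all cells of the animal. Untreated mice are not part of the comparison. The cells were gated as CD45+ Lin- ST2+ CD127+, where the lineage antibodies remove T cells, B cells, myeloid cells and FcεRIα+ cells.

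Eicosanoids are short-lived lipids made from arachidonic acid. Cyclooxygenases turn it into prostaglandin H2, from which terminal synthases make prostaglandin D2, prostaglandin E2, prostacyclin or thromboxane. Alox5, together with its partner Alox5ap, turns it into leukotriene A4, the precursor of leukotriene B4 and of the cysteinyl leukotrienes. In the lung, cysteinyl leukotrienes and prostaglandin D2 are known to activate ILC2s, while prostaglandin E2 and prostacyclin are known to restrain them. Each lipid acts on its own G protein-coupled receptors.

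The libraries held 24796148 to 28782471 estimated counts on genes. Icam1, the gene targeted in the knockout, had counts of 2579 and 2630 in WT against 2812 and 3453 in the others. Its RNA was not reduced in the knockout libraries, which are called the KO-labelled libraries. A count over the whole gene does not show which exons were read, so it does not tell whether the targeted allele is present. The paper states that its ICAM-1 knockout mice lack ICAM-1, which it measured on lung ILC2s by flow cytometry. That is a measure of protein, not of RNA. All 12 ILC2 genes listed as markers were measured, with a summed level of 6898 and 7626 in WT and of 6306 and 6222 in the KO-labelled libraries. Levels that compare or sum different genes are per length, as counts per kilobase of merged exons scaled to the same sum in every library (a TPM scale). Areg, Il5 and Klrg1 were the most abundant ILC2 markers. Of the genes tested, 8.8% were higher and 4.97% lower in the KO-labelled libraries at an adjusted p under 0.05, which together make 13.8%.

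None of the 9 genes passed this threshold in the quasi-likelihood test of edgeR, with p adjusted by Benjamini-Hochberg over 11711 genes. Before adjustment, 4 of the 9 (Ltb4r1, Cysltr1, Ptger1 and Hpgds) had a p under 0.05, against 30.2% of all genes tested. DESeq2 and limma each called 1 of them, Ltb4r1. The groups did not overlap for 5 of the 9, of which 2 were higher and 3 lower in the KO-labelled libraries, whereas 59.5% of all genes tested did not overlap. The median log2 fold change was 0.054 over the 9 genes and 0.011 over all genes tested. For 7 of the 9, the 95% interval lay within a 2-fold change in either direction, which held for 73.3% of all genes. In bulk libraries, fewer cells of a type and less RNA per cell cannot be told apart.

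Per length, the order of the genes was Ltb4r1, Alox5, Ptgir, Alox5ap, Cysltr1, Ptger4, Ptger2, Hpgds and Ptger1. Mean levels over the 4 libraries fell from 569 for Ltb4r1 to 2.46 for Ptger1. The ranges of neighbours in this order did not overlap. The closest pair was Cysltr1 (29.2 to 37.8) and Ptger4 (26.8 to 28.4), and their order turned in every library when the longest transcript was used in place of the merged exons. Ltb4r1 ranked at the 97.3rd to 98.2nd percentile of the genes tested, Alox5 at the 90.9th to 92.1st and Ptger1 at the 2.89th to 8.73rd.

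**Figure D1:**
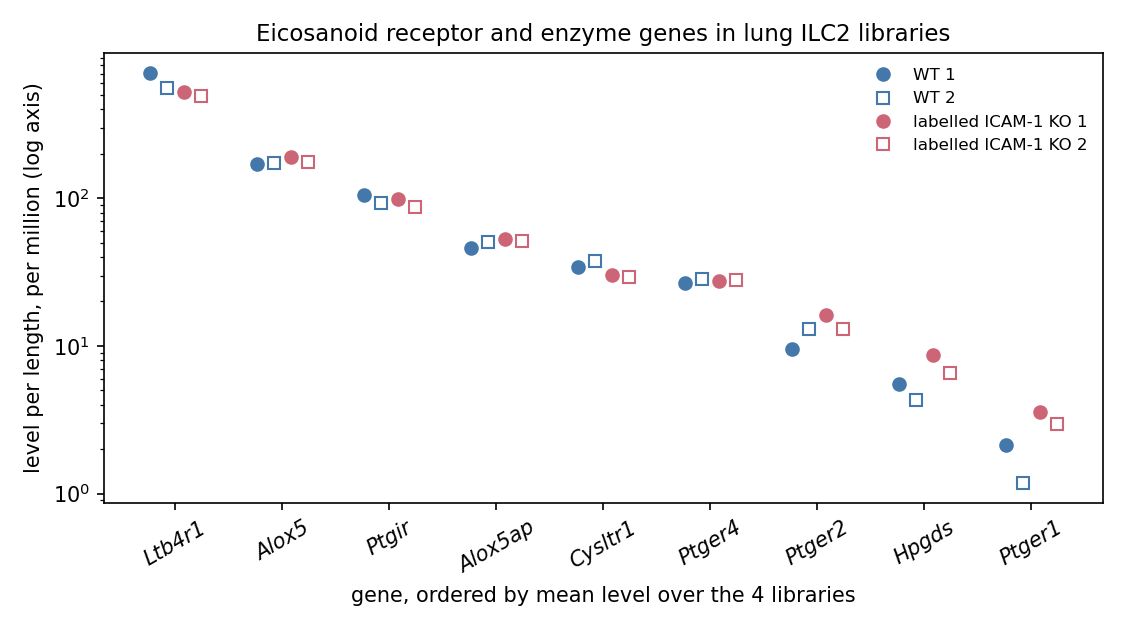
Level per length of each gene (vertical log axis, counts per kilobase of merged exons, TPM scale) in the 4 libraries, with genes ordered by their mean. Circles and squares are replicates 1 and 2, blue for WT and red for the KO-labelled libraries. Levels run from 702 for Ltb4r1 in a WT library to 1.18 for Ptger1 in the other.

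Promoter sequences from RefSeq (GRCm38.p6) were found for 6 of the 9 genes measured. Shown are the 250 bases before the start of Ltb4r1 and Alox5, the most abundant genes, and of Ptger2, the only one of the 6 with a GATA match. Capitals mark that match.
Ltb4r1 (chr14:55765712-55765961, plus strand): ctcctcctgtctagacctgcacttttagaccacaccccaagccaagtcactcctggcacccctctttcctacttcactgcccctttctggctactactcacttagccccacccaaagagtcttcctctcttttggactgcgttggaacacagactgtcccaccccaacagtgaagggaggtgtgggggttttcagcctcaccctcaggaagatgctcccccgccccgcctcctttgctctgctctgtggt
Alox5 (chr6:116461179-116461428, minus strand): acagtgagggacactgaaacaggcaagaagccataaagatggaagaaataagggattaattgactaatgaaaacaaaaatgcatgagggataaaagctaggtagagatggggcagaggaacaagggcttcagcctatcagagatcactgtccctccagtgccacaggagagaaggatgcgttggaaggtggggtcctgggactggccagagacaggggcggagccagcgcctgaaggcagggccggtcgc
Ptger2 (chr14:44987861-44988110, plus strand): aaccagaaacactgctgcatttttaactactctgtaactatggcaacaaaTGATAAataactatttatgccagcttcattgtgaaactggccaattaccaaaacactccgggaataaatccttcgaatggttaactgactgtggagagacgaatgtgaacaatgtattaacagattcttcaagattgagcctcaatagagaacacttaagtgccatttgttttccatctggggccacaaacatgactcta
The letters AGATAA and TGATAA, bound by factors such as the ILC2 factor Gata3, were searched on both strands and occur in 16.6% of the 32851 promoters of this length. The match in Ptger2 begins 200 bases before the start. The letters AGGTCA (bound by ROR factors, in 14.0% of all promoters), TGACTCA (AP-1, in 4.46%) and TGACGTCA (a cyclic AMP response element, in 1.55%) were in none of the 6. GC content was 56.8% for Ltb4r1, 52.8% for Alox5 and 38% for Ptger2.

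Ltb4r1 encodes BLT1, the high-affinity receptor of leukotriene B4, a lipid known for drawing leukocytes into tissue. In mm10 it lies on chromosome 14 between 55765962 and 55768494 on the plus strand, and no other gene overlaps it. It had counts of 9411 and 8049 in WT against 6311 and 6856 in the KO-labelled libraries. The normalized count, the authors' value after upper quartile scaling, was 311 and 255 in WT against 219 and 218. Both WT libraries lay above the others, but they were farther from each other than the KO-labelled libraries were. The mean was 283 ± 39.5 (SD, n = 2 libraries) for WT, compared with 219 ± 0.447 (SD, n = 2) in the KO-labelled libraries. The log2 fold change was -0.34 (standard error 0.106, 95% interval -0.58 to -0.10, adjusted p = 0.0635 from edgeR). Other tools gave an adjusted p of 0.0140 with DESeq2 and 0.0491 with limma, and edgeR with the replicate number as a block gave 0.0454. The 5 other settings of edgeR with all libraries gave 0.0612 to 0.1305, above the threshold. Without the first WT library the log2 fold change was -0.19 (adjusted p = 0.286), and without the second it was -0.48 (adjusted p = 0.0410).

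Cysltr1, the receptor with the highest affinity for leukotriene D4, lies on chromosome X from 106574346 to 106603679 on the minus strand. Its exons share no bases with other genes. The WT libraries had 1698 and 2005 counts, and the KO-labelled libraries had 1353 and 1501. Normalized counts were 56.1 and 63.5 in WT against 47.0 and 47.9, so the groups did not overlap. The log2 fold change was -0.31 (standard error 0.124, 95% interval -0.59 to -0.028), with an unadjusted p of 0.0345 and an adjusted p of 0.131 from edgeR. The interval leaves room for a decrease of at most 1.5-fold. Cysltr2, the second receptor of this class, was named after its values were seen. Its normalized counts were 55.2 and 60.5 in WT against 49.9 and 51.5 (log2 fold change -0.16, adjusted p = 0.397 from edgeR). Per length, Cysltr2 was at 56.3 to 64.5 in the 4 libraries, above Cysltr1 in each. Per length, Ltb4r1 was 20.4 and 14.8 times as high as Cysltr1 in the WT libraries and 17.2 and 16.8 times in the KO-labelled libraries, and the groups overlapped in this ratio.

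Among prostanoid receptors Ptgir, which encodes the prostacyclin receptor IP, was the most abundant. It lies on chromosome 7 from 16906490 to 16910905 on the plus strand. The libraries held 3372 and 3179 counts in WT against 2880 and 2907 in the KO-labelled libraries. Normalized counts were 111 and 100.7 against 99.997 and 92.6. The groups did not overlap, but the nearest libraries almost met. The mean was 106 ± 7.54 (SD, n = 2) in WT and 96.3 ± 5.20 (SD, n = 2) in the KO-labelled libraries, a log2 fold change of -0.11 (95% interval -0.35 to 0.12, adjusted p = 0.510 from edgeR).

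The receptors of prostaglandin E2 differed widely in level. Ptger4 encodes EP4 and Ptger2 encodes EP2, both of which raise cyclic AMP in the cell. Ptger1 encodes EP1, which signals through calcium. Per length, Ptger4 was 2.82 and 2.18 times as high as Ptger2 in WT and 1.70 and 2.14 times in the KO-labelled libraries. All libraries thus had more Ptger4 than Ptger2 and more Ptger2 than Ptger1.

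Ptger4, on chromosome 15 from 5206661 to 5244187 on the minus strand, had the log2 fold change nearest to 0 of the 9 genes. Normalized counts were 56.7 and 61.7 in WT and 55.6 and 59.2 in the KO-labelled libraries, and the groups overlapped. The log2 fold change was -0.017 (standard error 0.119, 95% interval -0.29 to 0.25, adjusted p = 0.941 from edgeR). This interval covers a fold between 0.82 and 1.19. Of its merged exons, 16.5% of bases are shared with genes on the other strand.

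Ptger2, on chromosome 14 from 44988195 to 45003820 on the plus strand, had counts of 475 and 698 in WT against 733 and 678 in the KO-labelled libraries. Normalized counts were 15.7 and 22.1 against 25.5 and 21.6. The first WT library was low and the second lay within the range of the KO-labelled libraries. The log2 fold change was 0.34 (standard error 0.214, 95% interval -0.15 to 0.82, adjusted p = 0.324 from edgeR), and it was 0.61 without the second WT library and 0.11 without the first.

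Ptger1 was the rarest of the 9 genes, with 112 and 66.6 counts in WT against 169 and 160 in the KO-labelled libraries. Normalized counts were 3.74 and 2.14 against 5.90 and 5.14. Both libraries labelled ICAM-1 KO lay above WT, with a log2 fold change of 0.94 (standard error 0.389, 95% interval 0.062 to 1.82, unadjusted p = 0.0385, adjusted p = 0.141 from edgeR). It was 0.59 without the second WT library (adjusted p = 0.424) and 1.39 without the first. The gene lies on chromosome 8 from 83666678 to 83672753 on the plus strand. Its counts were fractional in all 4 libraries, as the authors' counting gives where reads are divided between genes. Those of Ptger2, Ptgir, Alox5 and Alox5ap were fractional too, so this does not set Ptger1 apart. With its low counts, the values of Ptger1 are uncertain.

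Alox5, which encodes 5-lipoxygenase, was the most abundant of the 3 enzymes among the 9 genes. It lies on chromosome 6 from 116410077 to 116461178 on the minus strand and overlaps no other gene. Normalized counts were 224 and 232 in WT and 234 and 231 in the KO-labelled libraries. The means were 228 ± 5.52 (SD, n = 2) and 232 ± 2.62 (SD, n = 2), and the groups overlapped. The log2 fold change was 0.054 (standard error 0.0834, 95% interval -0.13 to 0.24, adjusted p = 0.711 from edgeR), the narrowest interval of the 9 genes. A fold outside 0.911 to 1.18 thus lies beyond this interval.

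Alox5ap encodes the membrane protein FLAP, which hands arachidonic acid to 5-lipoxygenase. It lies on chromosome 5 from 149264767 to 149288153 on the plus strand. Normalized counts were 20.9 and 23.5 in WT and 22.9 and 23.3 in the KO-labelled libraries. The libraries labelled ICAM-1 KO lay between both WT libraries, and the log2 fold change was 0.084 (95% interval -0.31 to 0.48, adjusted p = 0.789 from edgeR). Per length, Alox5 was 3.42 to 3.72 times as high as Alox5ap in the 4 libraries. Of the exon bases of Alox5ap, 13.3% are shared with genes on the other strand.

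Hpgds encodes hematopoietic prostaglandin D synthase, which makes prostaglandin D2. It lies on chromosome 6 from 65117293 to 65144908 on the minus strand. It had counts of 343 and 287 in WT against 481 and 421 in the KO-labelled libraries. Normalized counts were 11.4 and 9.12 against 16.7 and 13.4, and the groups did not overlap. The means were 10.2 ± 1.58 (SD, n = 2) and 15.1 ± 2.32 (SD, n = 2), a log2 fold change of 0.59 (standard error 0.243, 95% interval 0.035 to 1.14). The unadjusted p was 0.0396 and the adjusted p 0.143 from edgeR. Mast cells and basophils are also known to express Hpgds, Alox5 and Alox5ap. Of 10 marker genes of these cells, 2 were called higher and none lower in the KO-labelled libraries, against 8.8% higher and 4.97% lower over all genes tested. The log2 fold change was positive for 8 of these markers and negative for 2, and none was at 0 in any library. Their summed level per length was 3125 and 2502 in WT and 3762 and 4685 in the KO-labelled libraries, most of it from Cma1, Tpsb2 and Cpa3. Their part in the values of the 3 enzymes was not tested.

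Other genes of the pathway were counted in the same way. Of 43 such genes listed, 34 had a row, 21 passed the limits on low values, and 4 were higher and none lower in the KO-labelled libraries, against 8.8% higher and 4.97% lower over all genes tested. By edgeR, 6 of the 21 had an unadjusted p under 0.05, a share near the 30.2% of all genes. Both genes with the smallest adjusted p act on prostaglandins after their release. Hpgd encodes the dehydrogenase that inactivates prostaglandins, and Slco2a1 encodes the transporter that takes them up. The other genes called were Ptgs1, which encodes the cyclooxygenase COX-1, and Alox15, a lipoxygenase.

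**Figure D2:**
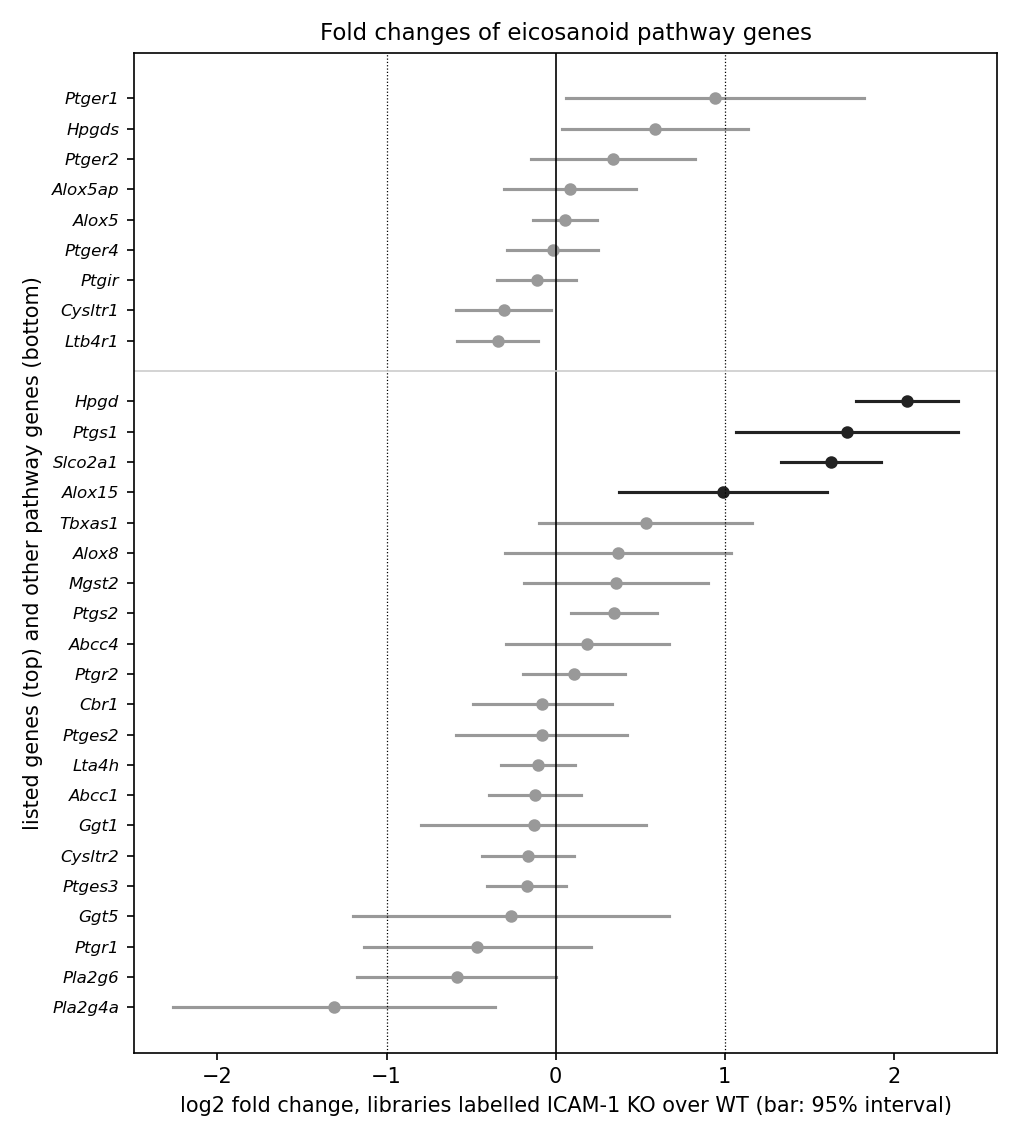
Log2 fold change between the KO-labelled libraries and WT (horizontal axis) for the 9 genes described above (top) and the 21 other pathway genes tested (bottom), with 95% intervals as bars and 2-fold changes as dotted lines. Black marks an adjusted p under 0.05. All black points are other pathway genes and lie between 0.99 and 2.08.

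Hpgd had counts of 600 and 664 in WT against 2603 and 2486 in the KO-labelled libraries. Normalized counts were 19.8 and 21.1 against 90.4 and 79.2, far apart and with little spread within a group. It rose 4.22-fold (95% interval 3.43 to 5.21, adjusted p = 0.000131 from edgeR), the fourth smallest adjusted p of all genes tested. Per length it reached 178 and 148 in the KO-labelled libraries, near the level of Alox5 in the same libraries (189 and 177).

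Slco2a1 had counts of 648 and 678 in WT against 1908 and 2006 in the KO-labelled libraries. Normalized counts were 21.4 and 21.5 against 66.3 and 63.9. It rose 3.09-fold (95% interval 2.52 to 3.80, adjusted p = 0.000329 from edgeR). The replicates within each group differed by much less than the groups did.

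Ptgs1 had counts of 141 and 138 in WT against 360 and 522 in the KO-labelled libraries. It rose 3.30-fold (95% interval 2.09 to 5.21, adjusted p = 0.00762 from edgeR). The inducible cyclooxygenase gene Ptgs2, named after its values were seen, was the more abundant of the pair, with 2194 and 2049 counts in WT against 2587 and 2563 in the KO-labelled libraries (log2 fold change 0.35, adjusted p = 0.0731 from edgeR). Per length, Ptgs1 was 0.0758 and 0.0794 times as high as Ptgs2 in WT and 0.164 and 0.240 times in the KO-labelled libraries. Both libraries labelled ICAM-1 KO thus had the higher ratio.

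Alox15 had counts of 235 and 212 in WT against 343 and 507 in the KO-labelled libraries. It rose 1.98-fold (95% interval 1.29 to 3.04, adjusted p = 0.0437 from edgeR). With all genes kept its adjusted p rose to 0.111. The filterByExpr limits of edgeR gave 0.0593, and an older version of the quasi-likelihood test 0.0578. It was 0.105 without the first WT library, 0.157 without the second and 0.229 without the second KO-labelled library.

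**Figure D3:**
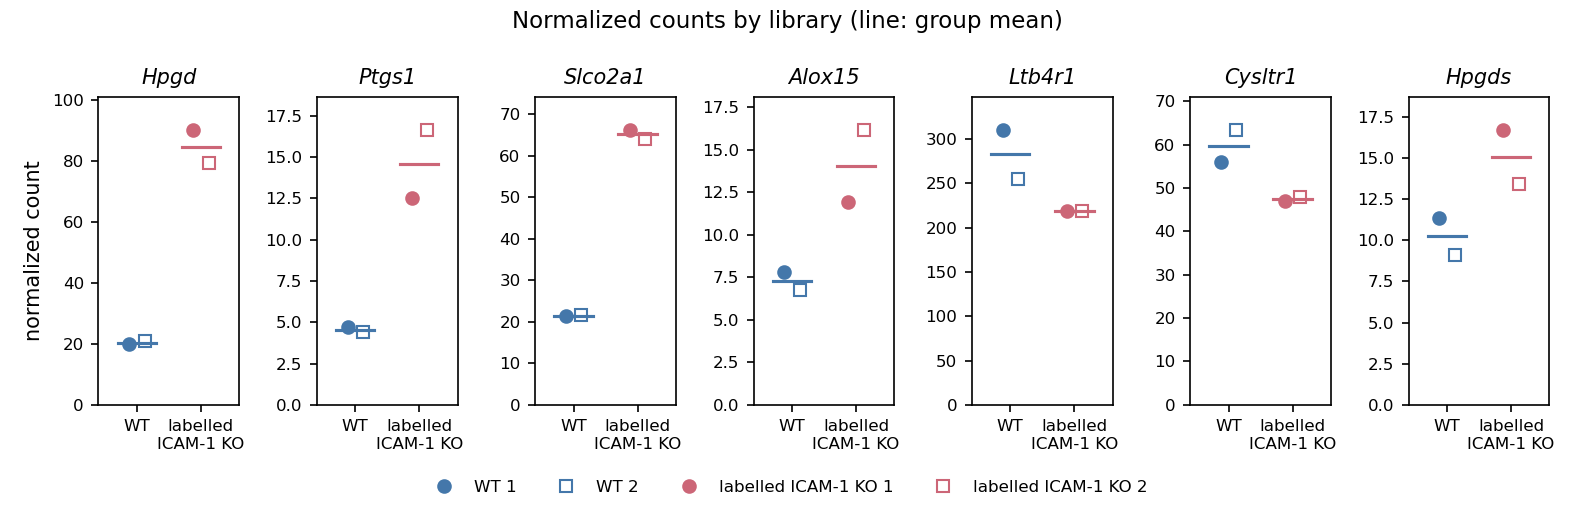
Normalized counts (vertical axes, each from 0) in the 4 libraries for the 4 other pathway genes that rose and for Ltb4r1, Cysltr1 and Hpgds. Symbols are single libraries and lines group means. Hpgd rises from 20.4 to 84.8 and Slco2a1 from 21.5 to 65.1, while Ltb4r1 goes from 283 to 219 without passing the threshold.

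Markers of other lung cells moved with these genes. Of 8 endothelial markers, all 8 were higher in the KO-labelled libraries, and their summed level per length was 92.0 and 93.5 in WT against 238 and 243. Of 12 macrophage and monocyte markers, 8 were higher, and their sum was 644 and 637 against 1291 and 1784. Of 11 T cell markers, 6 were higher, and their sum was 2120 and 2139 against 3147 and 3398. Trbc2, which was not called (log2 fold change 0.25, adjusted p = 0.0987 from edgeR), gave 1114 of the first WT sum. No marker of these 3 lists was at 0 in both libraries of a group and none was called lower. Over all genes tested, 8.8% were called higher and 4.97% lower. The other lists are counted over the markers that were tested. Higher were 6 of 8 neutrophil, 4 of 6 B cell, 4 of 5 dendritic cell and 4 of 7 epithelial markers. The same held for 1 of 3 NK cell and 1 of 6 mesenchymal markers, and none in these lists was lower. Of 4 eosinophil markers tested, 1 was higher and 2 were lower. Of the 12 ILC2 markers, 1 was higher and 3 were lower. Csf1r and Cd5 had no matched length and are left out of the sums. The part of these cells in the change of Hpgd, Slco2a1, Ptgs1 and Alox15 was not tested.

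None of the remaining pathway genes had an adjusted p under 0.05 in the edgeR test of the 11711 genes kept. The genes with the highest level per length among the 43 other pathway genes were Ptges3, which encodes the cytosolic prostaglandin E synthase and co-chaperone p23, Hpgd, and Lta4h, which encodes the hydrolase that makes leukotriene B4. Normalized counts of Ptges3 were 234 and 281 in WT and 226 and 224 in the KO-labelled libraries (log2 fold change -0.17, adjusted p = 0.306 from edgeR). Those of Lta4h were 178 and 180 against 154 and 172 (log2 fold change -0.10, adjusted p = 0.512). Ltc4s, which encodes the synthase of leukotriene C4 and was named after its values were seen, fell below the limits on low values. It had counts of 25.0 and 8 in WT against 26 and 36 in the KO-labelled libraries, and Lta4h was 24.9 to 118 times as high per length. Pla2g4a, also named after its values were seen, encodes the phospholipase that frees arachidonic acid. It had counts of 174 and 161 in WT against 41 and 88 in the KO-labelled libraries (log2 fold change -1.31, 95% interval -2.26 to -0.36, adjusted p = 0.0703 from edgeR). Of the 4 remaining prostanoid receptor genes none passed the limits, and the 3 with a row had 0 to 91 counts per library.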

How the data were processed

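RNA was sequenced from sorted lung ILC2s, 2 WT and 2 ICAM-1 KO libraries as labelled. The authors made cDNA with a low-input SMARTer kit, aligned reads to mm10 (STAR, GENCODE M20 gene models) and deposited expected counts per gene from the E/M model of Partek, which splits reads that fit more than 1 gene. The authors also deposited a normalized signal by upper quartile scaling, here called normalized count, in which 1 was added to each count before multiplying by a factor per library.

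Expected counts were rounded and tested with edgeR 4.0.16 in R 4.3.3 (quasi-likelihood, upper quartile factors, no covariate). Kept were 11711 genes whose normalized counts averaged 1 or more and summed to 10 or more, limits taken from the study's methods. A call needed a Benjamini-Hochberg adjusted p below 0.05. Standard errors and intervals come from the log2 fold change and its F statistic. Lengths come from GENCODE M21, which matched 21881 of the 22558 genes. On simulated counts with 200 of 11711 genes changed, recovery was 66% for log2 changes of 1 and 93.3% for log2 changes of 2, with 4.61% false calls. Each gene was drawn with the spread typical of its level, not with its own. Fewer genes were changed than were called in the data, and smaller changes were not simulated. These shares therefore need not hold for the data.

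The members and gene lists were chosen with earlier results of these data known. Named are all members, each pathway gene called, the 3 most abundant pathway genes and up to 3 per marker list. Alternatives were TMM factors, DESeq2 1.42.0, limma 3.58.1 on the log2 of the normalized count plus 1, other filters, edgeR's older quasi-likelihood fit, a replicate block and each library left out. Whether counting used strand is not given in the sources used here. Replicates are pools of mice, so p-values measure the spread between pools. Deviations of same-numbered libraries correlated at -0.058 over genes, so the numbers were not taken as pairs. A result that bears on the counting of Ptger1 is not reported here.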

Additional observations from a re-analysis of the deposited data

How the results depend on the processing

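No member was called higher under any alternative run, and no other pathway gene was called lower. The number of members called lower was 0, and it became 1 with DESeq2 and its size factors, with limma on log2 normalized counts and with the replicate block, in each case Ltb4r1. Leaving out single libraries gave 0 to 1, with Ltb4r1 called without the second WT library. The cause was not tested. The replicate number is shared by label alone, and the block changed no other call among the members and other pathway genes. Over all genes, 1612 were called, against 535 with no filter on low counts and 681 to 1305 when single libraries were left out (fewest without either WT library). When 1 library is left out, the remaining library of that group is assumed to vary like the others. The number of other pathway genes called higher was 4 and ranged from 3 to 5 over all alternatives. Ptger4 had a log2 fold change of -0.017, and leaving out single libraries gave -0.078 to 0.046, positive without the second WT library and, at 0.038, without the first library labelled ICAM-1 KO. Hpgd, Slco2a1 and Ptgs1 were called under all 8 other settings and with each of the 4 libraries left out. The 95% intervals of Ptger1 and Hpgds, the rarest members, reach beyond a 2-fold change.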
